A study of Mus musculus with 12 samples.

Results

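Adrenomedullin and the genes that make its receptor were followed in bulk RNA-seq of mouse retinas at postnatal day (P) 18. They are Adm, which encodes the peptide, Calcrl, which encodes the receptor, and Ramp1, Ramp2 and Ramp3, which encode its accessory proteins. These 5 of the 36131 genes in the table were found by symbol, each symbol had 1 row, and all 5 passed the filter on low counts. The family was chosen from measured values of the comparisons given here, since the levels of Adm in these retinas were already known. The differences of the 5 genes are therefore a description, and no p-value is given for them.

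The study asked what IC100, a humanized antibody against the inflammasome adaptor ASC, does in oxygen-induced retinopathy. In this model newborn mice are kept in high oxygen, which damages the young capillaries of the retina. They are then returned to room air, where the poorly perfused retina becomes short of oxygen and forms new vessels. There were 3 groups of 4 C57BL/6J wildtype animals, all sampled at P18. RA-PBS animals (1 to 4) stayed in room air and received the placebo PBS. O2-PBS animals (5 to 8) were kept in 75% oxygen with their nursing mothers from P7 to P12 and received PBS. O2-IC100 animals (9 to 12) had the same oxygen and received IC100 at 10 µg/g into the peritoneum, and injections in each group were on P12, P14 and P16. The mothers moved in and out of the chamber, so the pups were nursed by animals that had themselves breathed oxygen on some days. There was no group in room air with IC100.

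Adrenomedullin is a small secreted peptide that widens vessels, tightens the endothelial barrier and promotes the growth of blood and lymphatic vessels. Its receptor is a pair: the protein of Calcrl is a receptor of the G protein-coupled kind that reaches the cell surface and takes its ligand preference only together with an accessory protein. With the protein of Ramp1 it binds calcitonin gene-related peptide best, and with that of Ramp2 or Ramp3 it binds adrenomedullin. The signal inside the cell runs mostly through Gs and cyclic AMP. Adm is a known target of the hypoxia-inducible factors (HIF), and endothelial cells are the main site of Calcrl and Ramp2 in most tissues.

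The promoters are shown because HIF recognizes a short core, ACGTG or GCGTG, in the genes it acts on. These are the 250 bases before the transcription start from RefSeq on GRCm38.p6, written 5′ to 3′ along the gene, with matches to either core on either strand in capitals. The Adm window is chr7:110627407-110627656 on the plus strand, and the Ramp3 window is chr11:6658283-6658532 on the plus strand.
Adm: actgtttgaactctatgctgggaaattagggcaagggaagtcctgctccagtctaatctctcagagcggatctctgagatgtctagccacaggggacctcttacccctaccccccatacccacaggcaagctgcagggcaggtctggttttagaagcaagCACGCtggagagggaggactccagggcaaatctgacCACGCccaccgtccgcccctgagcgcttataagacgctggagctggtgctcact
Ramp3: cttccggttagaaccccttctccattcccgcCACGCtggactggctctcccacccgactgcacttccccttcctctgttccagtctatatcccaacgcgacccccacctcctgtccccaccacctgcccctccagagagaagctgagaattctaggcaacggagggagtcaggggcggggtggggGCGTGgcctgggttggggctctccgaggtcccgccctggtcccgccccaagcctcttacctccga
Adm had 2 matches, both to GCGTG on the opposite strand and so printed as CACGC, whose first bases lie 90 and 54 bases before the start. Ramp3 also had 2 matches, at 219 bases on the opposite strand and at 65 bases on the gene's own strand. The windows of Calcrl and Ramp1 had 0 matches. Of 32851 promoter windows of this length in the table, 38.6% held at least 1 match and 16.7% held 2 or more, so such letters are common and a match is not a binding site. Whether the matches bear on the RNA levels of either gene was not tested.

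As a check of the labelled tissue, 10 markers of rod photoreceptors summed to 38532 to 46030 CPM in 11 retinas. CPM is the count scaled to a common library size after normalization. The exception was O2-IC100 animal 10, with 10818 CPM. In that library crystallins, the structural proteins of the lens, took 59% of all counts, against at most 4.5% elsewhere, and markers of the pigment epithelium summed to 5611 CPM against at most 263. Each result that involves O2-IC100 is therefore given with all 12 animals and without animal 10. Some lens RNA was also present in RA-PBS animals 2, 3 and 4, where crystallins took 1.25% to 4.5% of counts, and was nearly absent in O2-PBS, where they took 0.00303% to 0.0158%. RNA of 4 Y-linked genes was high (223 to 324 CPM) in animals 1, 2, 3, 8, 9, 11 and 12 and low (4.04 to 9.85 CPM) in the other 5, so most O2-PBS animals were low and all O2-IC100 animals except animal 10 were high. Total counts were 14907143 to 24438082 per retina. In bulk RNA, fewer cells of a type and less RNA per cell cannot be told apart.

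The ligand was the member whose RNA differed most between groups. Adm (ENSMUSG00000030790) was at 0.449, 0.724, 1.39 and 1.26 normalized CPM in the 4 RA-PBS animals, from 8 to 25 counts each. In O2-PBS it was at 14, 7.35, 12.8 and 9.81 CPM, from 141 to 233 counts. In O2-IC100 it was at 4.63, 4.8 and 4.41 CPM in animals 9, 11 and 12, and at 1.51 CPM in the lens-rich animal 10. The 3 groups did not overlap in normalized CPM. Every O2-PBS retina was above every other retina, and every O2-IC100 retina was above every RA-PBS retina. For animal 10 this place above RA-PBS rests on the scaling of its lens-rich library. It had 12 counts of 24438082 in total, against 25 of 16843970 in RA-PBS animal 3 at 1.39 CPM. The 3 retinas of O2-IC100 other than animal 10 were close together, at 4.61 ± 0.194 CPM (SD, n = 3).

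Between O2-PBS (11 ± 3.01 CPM, SD, n = 4) and RA-PBS (0.956 ± 0.444, n = 4), Adm was 11.4-fold higher. Its log2 fold change was 3.51 ± 0.44 (SE) in the edgeR fit of all 12 animals and 3.51 ± 0.30 without animal 10. That was the 15th largest rise of 16489 genes tested in the first fit and the 19th largest of 16688 in the second. Markers of endothelial cells moved in the same direction, with a summed level of 269 to 373 CPM in RA-PBS and 532 to 627 CPM in O2-PBS, and so did markers of tip cells and tufts, with 17.7 to 30.5 against 96.3 to 191 CPM, and of pericytes and mural cells, with 175 to 207 against 361 to 526 CPM. All 14 endothelial, all 8 tip cell and tuft and all 10 pericyte and mural markers had a higher mean in O2-PBS, and 0 of them were at 0 in all retinas of a group. Markers of Muller glia summed to 2390 to 3663 CPM in RA-PBS and 1878 to 2228 CPM in O2-PBS, and 5 of the 6 had a lower mean in O2-PBS. Lens RNA was present in RA-PBS animals 2 to 4, at 0.724 to 1.39 CPM of Adm, and nearly absent in animal 1, at 0.449 CPM. With lens markers as a covariate the log2 fold change of Adm was 3.16 ± 0.50. Among animals with high Y-linked RNA, animal 8 was at 9.81 CPM of Adm and animals 1 to 3 at 0.449 to 1.39 CPM, and among those with low, animals 5 to 7 were at 7.35 to 14 CPM and animal 4 at 1.26 CPM, so each of these comparisons has 1 retina on one side. With Y-linked RNA as a covariate and without animal 10 the log2 fold change was 3.35 ± 0.32.

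The study's thresholds called a gene when its fold change reached 1.5 with a p-value below 0.05 and an adjusted p-value below 0.1. The study applied them with DESeq2, and here they were applied with edgeR unless another tool is named. The 3 comparisons share their groups, so they are not independent of each other. In O2-IC100 Adm was lower than in O2-PBS and higher than in RA-PBS. Against O2-PBS its log2 fold change was -1.50 ± 0.40 with all 12 animals, a 2.82-fold lower level, and -1.23 ± 0.28 without animal 10, a 2.35-fold lower level. Against RA-PBS it was 2.02 ± 0.42 with all 12 animals, 4.05-fold higher, and 2.28 ± 0.31 without animal 10, 4.86-fold higher. Tip cell and tuft markers had the same order, with 52.8 to 70.7 CPM in O2-IC100 without animal 10, and so did endothelial markers, with 381 to 425 CPM. Their part in the difference was not tested. O2-PBS animal 8, the only one of its group with high Y-linked RNA, had 9.81 CPM of Adm against 4.41 to 4.8 in the O2-IC100 animals with high Y-linked RNA. With Y-linked RNA as a covariate and without animal 10 the log2 fold change of O2-IC100 against O2-PBS was -0.92 ± 0.36, no longer past the study's thresholds. Calls over all 16688 genes also fell with this covariate, from 158 to 46.

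**Figure D1:**
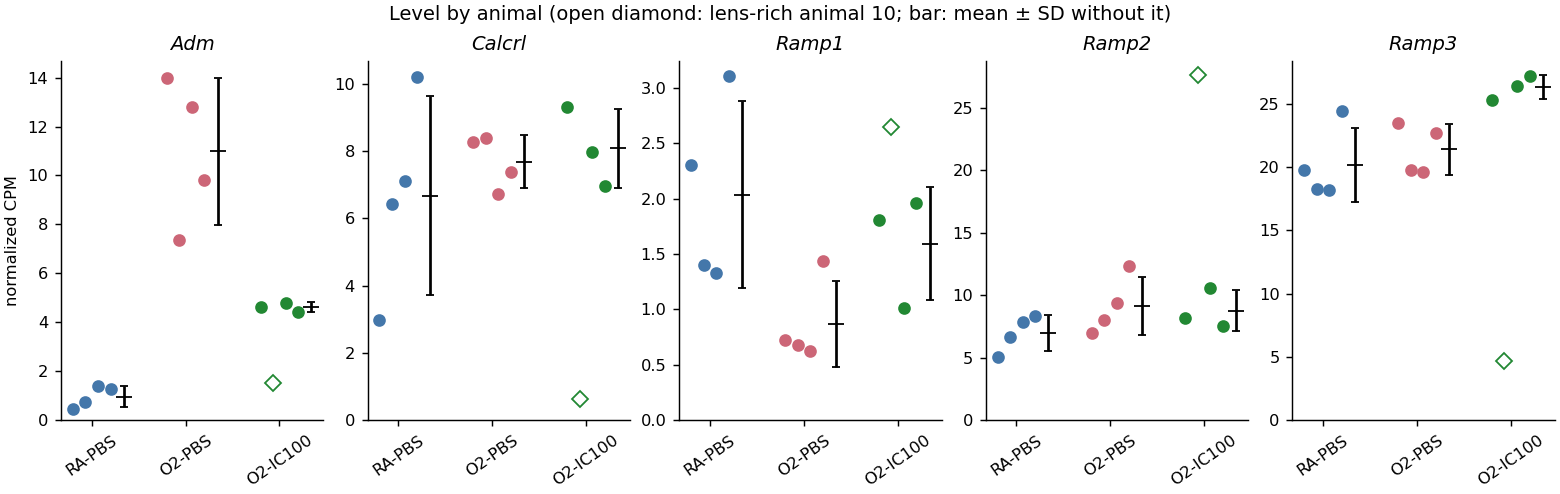
Normalized CPM of each of the 5 genes by group, 1 point per retina, with the mean and SD as bars and the lens-rich animal 10 as an open diamond that is left out of the bars. The 3 groups separate for Adm in normalized CPM (0.449 to 1.39, 7.35 to 14 and 1.51 to 4.8), whereas Calcrl and Ramp2 overlap between all groups. For Adm the lowest O2-IC100 value is animal 10, from 12 counts in its lens-rich library. Each panel has its own axis.

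The group levels of the receptor gene itself did not follow those of its ligand. Calcrl (ENSMUSG00000059588) was at 2.97, 6.42, 7.11 and 10.2 CPM in RA-PBS and at 8.26, 8.39, 6.73 and 7.37 CPM in O2-PBS. In O2-IC100 it was at 9.32, 7.97 and 6.96 CPM in animals 9, 11 and 12, and at 0.631 CPM, from 5 counts, in animal 10. All groups overlapped, and RA-PBS had by far the widest spread outside animal 10, with both the lowest and the highest retina. The log2 fold change of O2-PBS against RA-PBS was 0.21 ± 0.55 with all 12 animals and 0.20 ± 0.27 without animal 10. That of O2-IC100 against O2-PBS was -0.28 ± 0.55 and 0.09 ± 0.28, so its sign depended on animal 10.

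Ramp2 (ENSMUSG00000001240), whose protein makes the main adrenomedullin receptor of endothelium, also overlapped between groups. It was at 5.05, 6.66, 7.88 and 8.32 CPM in RA-PBS and at 6.93, 8.03, 9.39 and 12.3 CPM in O2-PBS. In O2-IC100 it was at 8.14, 10.6 and 7.55 CPM, and at 27.6 CPM in animal 10. The highest O2-PBS retina was animal 8, and the lens-rich library stood far above all others. The log2 fold change of O2-PBS against RA-PBS was 0.39 ± 0.39 with all animals and 0.39 ± 0.20 without animal 10. With the level of lens markers as a covariate in all 12 animals it was 1.01 ± 0.25, past the thresholds. That fit called 2492 of all 16489 genes, against 133 without the covariate. For O2-IC100 against O2-PBS the log2 fold change of Ramp2 went from 0.54 ± 0.39 to -0.05 ± 0.22 when animal 10 was left out.

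Ramp3 (ENSMUSG00000041046), the accessory protein of the other adrenomedullin receptor, differed least between RA-PBS and O2-PBS. It was at 19.8, 18.3, 18.2 and 24.4 CPM in RA-PBS and at 23.5, 19.8, 19.6 and 22.7 CPM in O2-PBS. In O2-IC100 it was at 25.3, 26.4 and 27.2 CPM in animals 9, 11 and 12, and at 4.67 CPM in animal 10. RA-PBS and O2-PBS overlapped almost fully, with a log2 fold change of 0.08 ± 0.11 without animal 10. The 3 O2-IC100 retinas without animal 10 lay above all 8 others, by 0.31 ± 0.12 on the log2 scale against O2-PBS and 0.40 ± 0.12 against RA-PBS. With animal 10 these differences were -0.03 ± 0.39 and 0.06 ± 0.39, and the groups overlapped.

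Ramp1 (ENSMUSG00000034353), which turns the receptor to calcitonin gene-related peptide, was lower in O2-PBS than in the other groups and was scarce throughout. It was at 2.3, 1.4, 1.33 and 3.11 CPM in RA-PBS, from 24 to 59 counts, and at 0.724, 0.678, 0.622 and 1.44 CPM in O2-PBS, from 11 to 26 counts. In O2-IC100 it was at 1.81, 1.01 and 1.96 CPM in animals 9, 11 and 12, and at 2.65 CPM in animal 10. RA-PBS and O2-PBS overlapped through animal 8 alone, which was above animals 2 and 3. The log2 fold change was -1.22 ± 0.41 with all animals and -1.23 ± 0.39 without animal 10, a 2.34-fold lower level. Against O2-PBS, O2-IC100 was higher by 1.07 ± 0.42, or by 0.89 ± 0.42 without animal 10.

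Y-linked RNA moved with the level of Ramp1 in O2-PBS. Animal 8, with high Y-linked RNA, was at 1.44 CPM, within the range of RA-PBS animals 1 to 3 (1.33 to 2.3 CPM) and of O2-IC100 animals 9, 11 and 12 (1.01 to 1.96 CPM), which were also high. Animals 5 to 7, with low Y-linked RNA, were at 0.622 to 0.724 CPM against 3.11 CPM in animal 4, the only RA-PBS animal that was low. Each of these comparisons has 1 retina on one side, so they cannot show whether the difference depends on Y-linked RNA. In RA-PBS the order was the reverse of that in O2-PBS, since animal 4 had the highest level. With the log2 level of Y-linked RNA as a covariate and without animal 10, the log2 fold change of Ramp1 was -1.24 ± 0.42 between O2-PBS and RA-PBS, where it was not past the thresholds, and 0.94 ± 0.52 between O2-IC100 and O2-PBS.

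**Figure D2:**
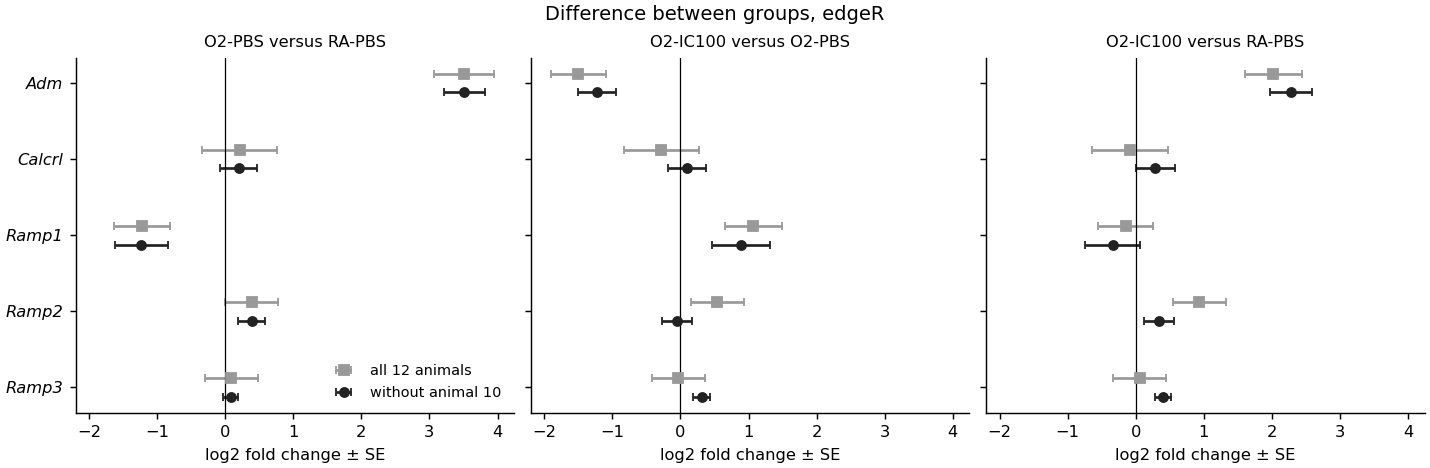
Log2 fold change and its SE for each gene in the 3 comparisons, in grey squares for the fit of all 12 animals and in black circles for the fit without animal 10. Adm is farthest from 0 in each comparison (3.51, -1.50 and 2.02 with all animals), and the black bars are shorter than the grey ones for most genes.

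Read against the study's thresholds, 1 of the 5 genes was past them in O2-PBS against RA-PBS with all 12 animals, namely Adm, where 0.807% of all tested genes were called. Without animal 10 it was 2 of 5, Adm higher and Ramp1 lower, where 6.27% of all genes were called. Ramp1 was no longer past the thresholds in those 11 animals with Y-linked RNA as a covariate, nor without animals 1 and 10. Those fits called 880 of 16688 and 968 of 16640 genes, against 1046 of 16688 without animal 10 alone. For O2-IC100 against O2-PBS, 0 of 5 and 0% of all genes were past the thresholds in edgeR with all 12 animals. There 2784 genes had an unadjusted p below the limit. DESeq2, the tool of the study, called 125 of all 16489 genes in the same animals, with 1 of the 5 past the thresholds (Adm, lower). In edgeR without animal 10 it was 1 of 5 (Adm, lower) and 0.947% of all genes. With Y-linked RNA as a covariate in those 11 animals it was 0 of 5, where 46 of all 16688 genes were called, against 158 without the covariate. For O2-IC100 against RA-PBS it was 0 of 5 and 0% in edgeR with all 12 animals, with 2183 genes below the unadjusted limit. DESeq2 called 299 genes there, with 1 of the 5 past the thresholds. In edgeR without animal 10 it was 1 of 5 (Adm, higher) and 1.56%.

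By separation of groups, 1 of the 5 genes (Adm) did not overlap between O2-PBS and RA-PBS, where 14.4% of all genes did not with the genes tested in all 12 animals and 14.3% with those tested without animal 10. Between O2-IC100 and O2-PBS it was 1 of 5 (Adm) against 20.8% of all genes, and without animal 10 it was 2 of 5 (Adm and Ramp3) against 35.4%. Between O2-IC100 and RA-PBS it was 1 of 5 (Adm) against 5.84%, and without animal 10 it was 2 of 5 (Adm and Ramp3) against 10.8%. Nothing is read from these counts, because the family was chosen with these comparisons known.

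Levels can be compared between genes only per length of transcript, here as CPM per kb of the longest annotated transcript. In RA-PBS Ramp3 was at 16.4 ± 2.39 (SD, n = 4) and Ramp2 at 5.92 ± 1.24 CPM per kb. Calcrl was at 1.37 ± 0.604, Ramp1 at 0.875 ± 0.361 and Adm at 0.688 ± 0.32 CPM per kb, and neighbours among these last 3 differed by less than their spread. So 2 accessory proteins of the adrenomedullin receptors were more abundant in RNA than the receptor they serve. The ligand had the lowest mean, within the spread of Ramp1.

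The order changed in O2-PBS because of the ligand. Ramp3 stayed at the top with 17.4 ± 1.63 CPM per kb. Adm, at 7.91 ± 2.17, stood beside Ramp2 at 7.78 ± 1.97, a difference within their spread, and both were above Calcrl at 1.57 ± 0.161 and Ramp1 at 0.373 ± 0.166 CPM per kb. In O2-IC100 without animal 10 the order was Ramp3 (21.3 ± 0.744, n = 3), Ramp2 (7.43 ± 1.35), Adm (3.32 ± 0.14), Calcrl (1.66 ± 0.242) and Ramp1 (0.685 ± 0.22). The place of Ramp1 depended on the transcript: with the median transcript length it was at 2.39 CPM per kb in RA-PBS, above Calcrl at 1.51.

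Because Calcrl and Ramp2 are mainly endothelial in most tissues, each member was also set against 14 endothelial markers in the same retina. The value is its log2 CPM minus their mean log2 CPM. Which cells the RNA of the members came from in these retinas was not tested. The mean of the markers was 3.68 to 3.94 in RA-PBS, 4.58 to 4.91 in O2-PBS and 4.10 to 4.27 in O2-IC100 without animal 10, whose own value was 1.81. For all 14 markers the O2-PBS mean was above the RA-PBS mean, and the median of their log2 fold changes was 1.11. In the edgeR fits 3 of the 14 were called with all 12 animals and 11 without animal 10.

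The difference in Adm was larger than that of the markers. Adm stood at -3.76 ± 0.59 (SD) on this relative log2 scale in RA-PBS, at -1.29 ± 0.40 in O2-PBS and at -1.97 ± 0.10 in O2-IC100 without animal 10. The difference between O2-PBS and RA-PBS was 2.47 on this scale and 3.45 in log2 CPM. Animal 10 was at -1.10 on this scale, among the O2-PBS values.

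The receptor and its accessory proteins were lower in O2-PBS on the same scale, which falls when the endothelial markers are higher and the gene is not. Ramp3 was at 0.25 to 0.92 in RA-PBS and at -0.40 to -0.23 in O2-PBS, a mean difference of -0.88, and at 0.46 to 0.57 in O2-IC100 without animal 10. All 4 O2-PBS retinas lay below all 8 others, including animal 10 at 0.45. The marker mean that is subtracted separated the same retinas, at 4.58 to 4.91 in O2-PBS and at most 4.27 elsewhere. A gene with a steady level would therefore tend to be lower in O2-PBS on this scale. How many of all genes separate on it was not computed. Ramp2 was lower in O2-PBS than in RA-PBS by a mean of -0.59 and Calcrl by -0.65, and Ramp1 by -2.10. In O2-IC100 without animal 10 the differences from RA-PBS were -0.06 for Ramp3, -0.12 for Ramp2, -0.07 for Calcrl and -0.76 for Ramp1. The lowest RA-PBS retina for Calcrl was animal 1 at -2.05, and without it the mean difference of O2-PBS from RA-PBS was -0.96.

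**Figure D3:**
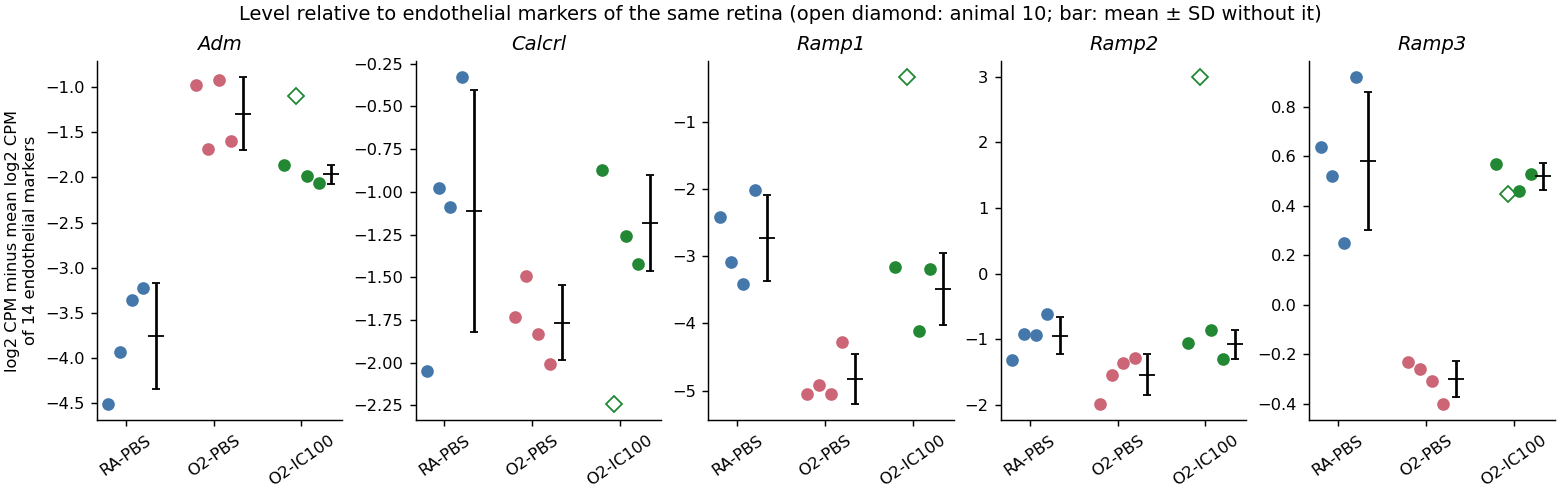
Log2 CPM of each gene minus the mean log2 CPM of 14 endothelial markers in the same retina, by group, 1 point per retina with the mean and SD as bars and animal 10 as an open diamond outside the bars. Adm is highest in O2-PBS (mean -1.29 against -3.76 in RA-PBS), and Ramp3 is lowest there (mean -0.30 against 0.58).

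The rest of the pathway was followed in a list of 55 genes, of which 51 passed the filter on low counts. It holds other peptides and receptors of the family, enzymes that make or break the peptide, Gs and the adenylyl cyclases, effectors of cyclic AMP, genes of receptor desensitization, the nitric oxide and Akt arm, and the oxygen sensors that act on Adm. With all 12 animals 1 of 51 (1.96%, against 0.807% of all genes) was called between O2-PBS and RA-PBS, higher, and 0 were called in the other comparisons, with 7 and 8 of the 51 at an unadjusted p below the limit. Without animal 10 the counts were 2 higher (3.92%, against 6.27% of all genes), 1 lower for O2-IC100 against O2-PBS (1.96%, against 0.947%) and 1 higher for O2-IC100 against RA-PBS (1.96%, against 1.56%). The median log2 fold change of the list between O2-PBS and RA-PBS was -0.10, against -0.01 over all genes.

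Egln3 encodes a prolyl hydroxylase, from a family that marks HIF for breakdown, and is itself a HIF target. It was at 4.15, 3.53, 5.44 and 4.27 CPM in RA-PBS, at 20.6, 12.1, 17 and 14.6 CPM in O2-PBS, and at 7.35, 8.88 and 8.63 CPM in O2-IC100 animals 9, 11 and 12. Animal 10 was at 20.1 CPM, among the O2-PBS values, and the other retinas fell into 3 ranges that did not overlap. Egln3 rose in O2-PBS over RA-PBS by 1.89 ± 0.32 on the log2 scale, with an edgeR adjusted p of 0.0321, and by 1.89 ± 0.18 without animal 10, with an adjusted p of 7.57e-05. With animal 10 kept and animal 1, 2, 4 or 5 left out, the rise missed the thresholds, with edgeR adjusted p of 0.106 to 0.156. The fall in O2-IC100 against O2-PBS was called without animal 10 (-0.94 ± 0.19, edgeR adjusted p = 0.0528) and not with it (-0.53, edgeR adjusted p = 0.37), nor without animal 10 when Y-linked RNA was a covariate (-0.86 ± 0.25, edgeR adjusted p = 0.126). The difference from RA-PBS was likewise called without animal 10 (0.95 ± 0.19, edgeR adjusted p = 0.0441) and not with it (1.36, edgeR adjusted p = 0.316).

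Adcy4 encodes an adenylyl cyclase, which makes cyclic AMP downstream of receptors such as Calcrl. Its level was 2.71 ± 0.903 CPM in RA-PBS, 6.81 ± 1.38 in O2-PBS and 4.01 ± 0.528 in O2-IC100 without animal 10. The log2 fold change of O2-PBS against RA-PBS was 1.33 ± 0.34 with all 12 animals, which missed the thresholds (edgeR adjusted p = 0.161), and 1.33 ± 0.23 without animal 10, which passed them (edgeR adjusted p = 0.00387). The difference between O2-IC100 and O2-PBS was not called in either fit (-0.99, edgeR adjusted p = 0.287, and -0.75 without animal 10, edgeR adjusted p = 0.171). The HIF subunit genes Hif1a and Epas1 had log2 fold changes of -0.07 ± 0.15 and 0.14 ± 0.18 between O2-PBS and RA-PBS, not called.

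**Figure D4:**
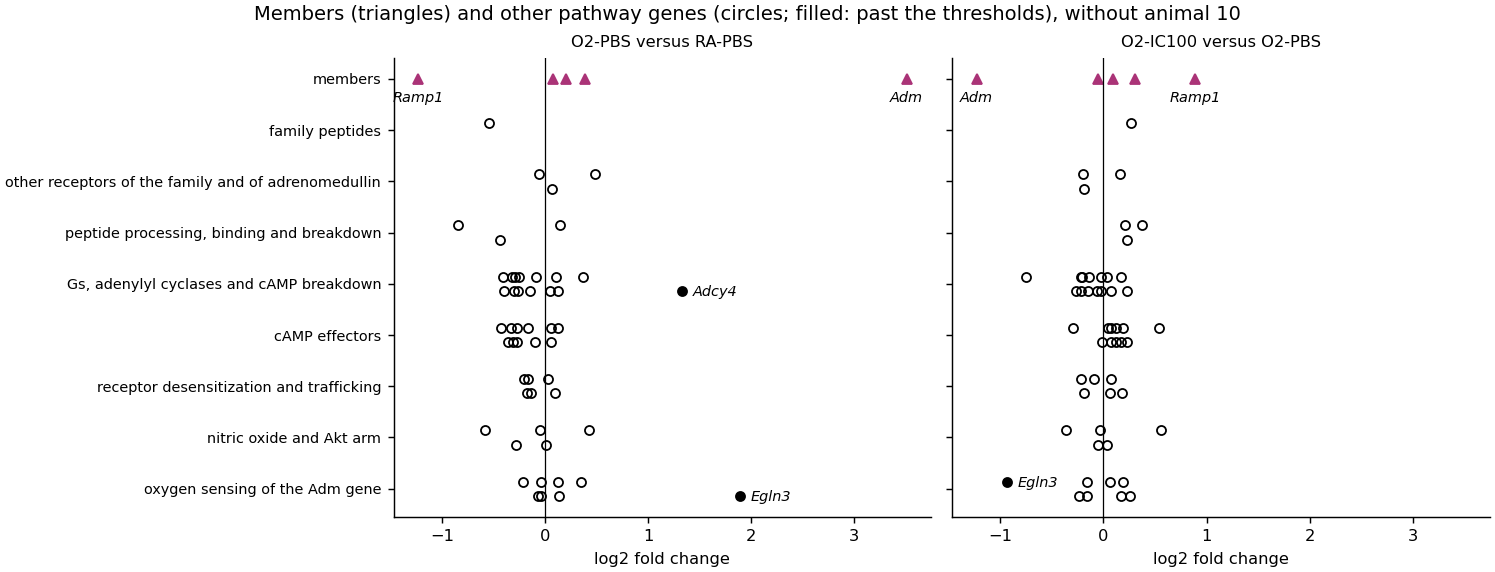
Log2 fold change of the 5 members (triangles) and of the 51 tested pathway genes (circles, filled when called) by role, in O2-PBS against RA-PBS and in O2-IC100 against O2-PBS, without animal 10. Most circles lie near 0, and the filled ones are Egln3 (1.89 and -0.94) and Adcy4 (1.33).

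The other ligands and receptors of the family were scarce or did not differ. Adm2, which encodes a second peptide for the same receptors, did not pass the filter: it had 0, 1, 0 and 0 counts in RA-PBS, 7, 5, 4 and 7 in O2-PBS and 4, 0, 4 and 1 in O2-IC100. The 23 counts of O2-PBS against 1 of RA-PBS give a ratio of 25.3, with an exact 95% interval of 4.11 to 1043 that covers counting error only. Fitted without the filter, its log2 fold change was 4.05 ± 1.01 and was not called (edgeR adjusted p = 0.201). Calca, the gene of calcitonin gene-related peptide, was at 0.362 to 1.29 CPM, and its relative Calcb had 0 to 7 counts. Iapp, the gene of amylin, had 1 count in 1 RA-PBS retina and 0 in the rest, and the calcitonin receptor gene Calcr had 0 to 11 counts.

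Ackr3, whose protein binds and removes adrenomedullin, was at 1.85 to 7.12 CPM in 11 retinas and at 31.4 CPM in animal 10. Gpr182, another receptor that has been linked to adrenomedullin, was at 1.01 to 4.66 CPM, and Crcp, a component linked to the signal of the Calcrl receptor, at 17.3 to 27.4 CPM with 39.1 CPM in animal 10. None of Calca, Ackr3, Gpr182 and Crcp was called in any of the 3 comparisons with all 12 animals or without animal 10.

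Among 15007 genes with a mean of at least 1 CPM, those with the pattern most like Adm over the 11 retinas without animal 10 were Esm1 (Pearson r of log2 CPM 0.987), Antxr2 (0.981), Vegfa (0.977), Capg (0.975) and Lcp1 (0.974). Esm1 marks endothelial tip cells, Vegfa is the main angiogenic factor of the ischemic retina, and Lcp1 is an actin-bundling protein of leukocytes. All 6 genes were highest in O2-PBS and lowest in RA-PBS in the group means. The mean difference in log2 CPM between O2-PBS and RA-PBS was 3.45 for Adm, 5.31 for Esm1, 3.01 for Capg, 1.87 for Lcp1, 1.43 for Antxr2 and 1.19 for Vegfa. That between O2-IC100 without animal 10 and O2-PBS was -1.18 for Adm, -1.31 for Esm1, -1.15 for Capg, -0.72 for Lcp1, -0.41 for Antxr2 and -0.42 for Vegfa. The retinas are in 3 groups and each gene shares their libraries, so these r values mostly describe the order of the groups. With animal 10 included they were 0.986 for Esm1, 0.944 for Antxr2, 0.929 for Vegfa, 0.815 for Capg and 0.848 for Lcp1.

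**Figure D5:**
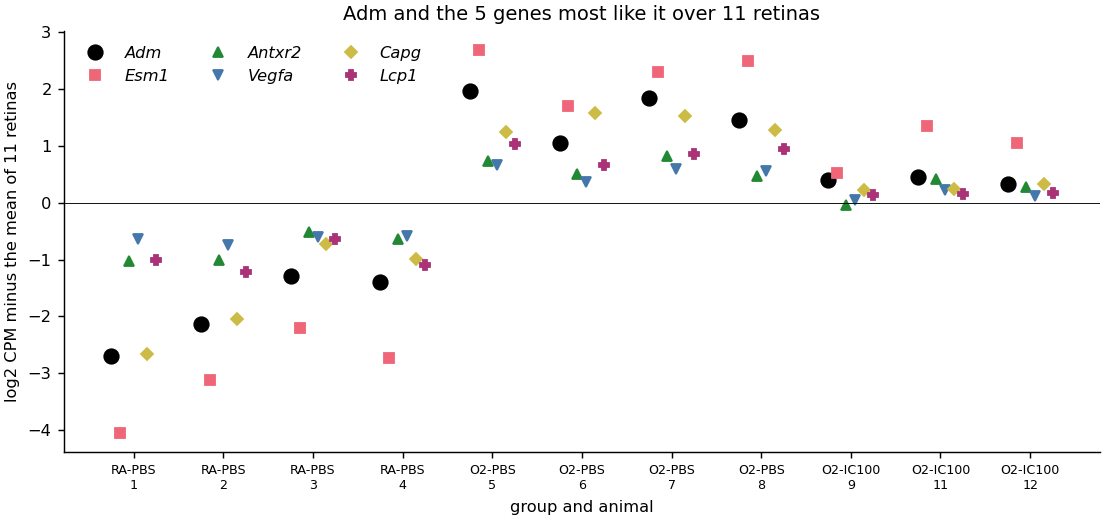
Log2 CPM of Adm and of the 5 genes most like it, each minus its own mean over 11 retinas, by group and animal. All 6 are below their mean in the 4 RA-PBS retinas and above it in the 4 O2-PBS retinas, with O2-IC100 between in the group means, and the range is widest for Esm1.

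For the receptor genes the most similar patterns were less close in r. They were Maip1 (0.94), B230307C23Rik (0.94) and Zfp870 (0.933) for Calcrl, Ica1l (0.943), Ptcd2 (0.94) and Fdps (0.933) for Ramp1, Ncapg (0.916), Zfp456 (0.916) and Hes5 (0.909) for Ramp2, and Dsel (0.961), 0610040J01Rik (0.944) and Snapc1 (0.923) for Ramp3. Each is among the highest of 15007 values over 11 retinas, and the r that unrelated genes would reach was not computed. Calcrl and the genes most like it were each lowest in animal 1, where Maip1 was at 3.41 log2 CPM against 4.10 to 4.34 in the others. With animal 10 included, r was lower for Maip1 (0.186), Ica1l (-0.108), Ptcd2 (0.619), Fdps (0.858), Ncapg (0.7), Zfp456 (0.12) and 0610040J01Rik (0.518), and higher for B230307C23Rik (0.984), Zfp870 (0.989), Hes5 (0.955), Dsel (0.993) and Snapc1 (0.981). Between members r over the 11 retinas ran from -0.68 (Adm with Ramp1) to 0.612 (Adm with Ramp2). After the group means were taken out, Adm with Ramp1 was at -0.123 and Adm with Calcrl at 0.683, again over 11 retinas that share libraries and depth.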

How the data were processed

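RNA was polyA-selected and read as 150 bp pairs, which the authors matched to GRCm39_104 with Kallisto and added up by gene through tximport. The deposited values are therefore expected counts, not scaled to depth. The values were rounded to whole numbers. Each sample's group came from its label. Normalization was by TMM in edgeR 4.0.16 (R 4.3.3), genes were kept by filterByExpr, and a robust quasi-likelihood model was fitted to the 3 groups together and again without animal 10. Tests were two-sided F tests adjusted by Benjamini-Hochberg across every tested gene, and called by the study's thresholds. The members and gene lists were chosen with earlier results of these data known. Pathway genes were named when called in either fit or when peptides or receptors of the family, and similar genes by the highest r. Transcript lengths were from GENCODE vM21 and promoters from RefSeq, both of GRCm38 and matched by symbol, with Ramp2 without an entry among promoters. The alternatives were DESeq2 1.42.0, limma 3.58.1 voom, RLE scaling, other filters and animal sets, and lens and Y-linked covariates. Of these, DESeq2 is the tool that the study used. The fits were run on simulated data with 200 genes changed by 2 on the log2 scale. Of these, edgeR recovered 99.5% with 10 false among 209 calls, and DESeq2 99.5% with 24 false among 223. Means and spread came from the retinas other than animal 10, and the changed genes were more abundant than Ramp1. The simulation therefore did not cover a lens-rich library or scarce genes. A total of 12 columns was used and the precision of low genes is limited by their counts.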

Additional observations from a re-analysis of the deposited data

Results flagged for a closer look

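In 27 sets of 4 retinas (9 genes of the family in 3 groups), 7 had 1 retina far from the others by Dixon's test of the gap to the nearest, where chance flags about 1 in 20. Of these, 5 were the lens-rich O2-IC100 animal 10: Adm was at 1.51 CPM there against 4.41 to 4.8 in the others, Ramp3 at 4.67 against 25.3 to 27.2, Ramp2 at 27.6 against 7.55 to 10.6, Ackr3 at 31.4 against 4.42 to 5 and Crcp at 39.1 against 21 to 23.9. In O2-PBS, Ramp1 was at 1.44 CPM in animal 8 against 0.622 to 0.724 in the other 3, and animal 8 was the only O2-PBS retina with high Y-linked RNA (230 CPM). In RA-PBS, Calca was at 1.29 CPM in animal 1 against 0.483 to 0.555.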

How the results depend on the processing

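Adm kept its direction in each comparison under all 23 alternatives: its log2 fold change ran from 3.16 to 3.74 for O2-PBS against RA-PBS, from -1.65 to -0.92 for O2-IC100 against O2-PBS and from 1.79 to 2.5 for O2-IC100 against RA-PBS. Ramp1 ran from -1.58 to -0.95 in the first comparison, and Calcrl, Ramp1, Ramp2 and Ramp3 each changed sign under some alternatives in at least 1 comparison. Under the lens covariate the first comparison gave 1.01 for Ramp2, -0.65 for Ramp3 and -0.48 for Calcrl. The count of members past the thresholds for O2-PBS against RA-PBS (1) was 2 without animals 3 and 10 and with DESeq2 without animal 10 (Adm and Ramp1), 2 with a lens marker covariate (Adm and Ramp2), and 1 to 2 when 1 animal was left out. For O2-IC100 against O2-PBS (0) it was 1 with DESeq2, without animals 1 and 10, without animals 3 and 10 and with DESeq2 without animal 10, and 0 to 1 when 1 animal was left out. For O2-IC100 against RA-PBS (0) it was 1 under those same 4 settings and with a Y-linked covariate without animal 10, 2 with the lens covariate (Adm and Ramp2), and 0 to 1 when 1 animal was left out.

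The count of pathway genes called for O2-PBS against RA-PBS (1) was 2 with DESeq2, voom, only the compared groups, without animals 1 and 10, and DESeq2 without animal 10, 3 without animals 3 and 10 and with the Y-linked covariate, and 13 with the lens covariate, and it ran from 0 to 2 when 1 animal was left out. Without animal 1, 2, 4 or 5 Egln3 lost its call (log2 fold change 1.75 to 1.88, edgeR adjusted p = 0.106 to 0.156). For O2-IC100 against O2-PBS (0) the count was 1 without animals 1 and 10 and without animals 3 and 10, 2 with DESeq2 without animal 10, and 0 to 1 when 1 animal was left out. For O2-IC100 against RA-PBS (0) it was 1 with DESeq2, without animals 1 and 10, without animals 3 and 10, with DESeq2 without animal 10 and with the Y-linked covariate, 15 with the lens covariate, and 0 to 1 when 1 animal was left out. The lens covariate raised the calls over all 16489 genes as well, to 2492 for O2-PBS against RA-PBS, where the main fit called 133. For O2-IC100 against RA-PBS it called 3324 of all genes, where the main fit called 0. Why the lens covariate gave so many was not tested. The setting without animals 3 and 10 was added after the data were seen, because animal 3 had the highest crystallin share after animal 10. Summing rows of a symbol could not be tried, since each member has 1 row. No paired analysis was possible because each animal has its own number and the groups share none.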
